A study of Mus musculus with 4 samples.

Results

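The genes examined here encode the proteins by which cells build and hold on to a basement membrane: the integrins, the laminin chains, and Nid1, Nid2, Hspg2 and Agrn, which tie the laminin network to its surroundings. They were chosen by a rule on gene symbols that uses no measured value, but the rule was set with earlier results of these data known. They numbered 41 of the 23235 genes listed in both deposited tables: 18 integrin alpha genes, 8 integrin beta genes, 11 laminin chains and the 4 linkers. RNA was sequenced from the luminal epithelium, the cell layer that faces the uterine cavity, and from the stroma beneath it, each cut out of mouse uterus by laser. All females were taken on day 4 after mating to a vasectomized male, so the uterus was under the hormones of early pregnancy but held no embryo. The control carried floxed alleles of the homeobox genes Msx1 and Msx2 (Msx1f/f/Msx2f/f), which the series calls wildtype, and the other mouse was labelled as lacking both genes in the uterus (Msx1d/d/Msx2d/d). Each compartment gave 1 library per genotype, and the series describes 1 mouse per genotype. The sources used here do not give the animals' age or the Cre driver. No value below has a replicate, so no difference can be set against the spread between mice: higher and lower are said of 4 libraries, not of genotypes.

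A basement membrane is a thin sheet of matrix under every epithelium and around vessels and muscle. Laminins, secreted as trimers of an alpha, a beta and a gamma chain, form its first network, nidogens and the proteoglycans perlecan and agrin join that network to type IV collagen, and integrins, each a pair of an alpha and a beta chain, bind it from the cell side. In the uterus the luminal epithelium and its basement membrane are the first barriers an attaching embryo meets, and several integrins have long been studied there as markers of receptivity.

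Levels are RPKM as deposited, reads scaled to transcript length and library size, so they can be compared between genes. The spacing of low values put the depth at 6350000 reads for the control luminal epithelium and between 42990000 and 90620000 reads for the other libraries, so the control luminal epithelium carries the widest counting error. Each ratio carries 95% limits (exact binomial, Clopper-Pearson) from reads estimated in this way, which cover counting error only. The level of Msx1 in luminal epithelium was 23.2 RPKM for the control and 13.6 RPKM for the library labelled knockout. Msx2 was at 1.31 and 2.06 RPKM, in the direction against the label. Its ratio was 1.58 with limits of 0.982 and 2.605, which include 1. Neither gene passed 0.135 RPKM in stroma. The exons removed are not stated, so the check is incomplete, and the libraries are called labelled knockout throughout. The 9 epithelial markers summed to 435 and 503 RPKM in luminal epithelium and to 1.77 and 0.529 RPKM in stroma (control, then labelled knockout). The 8 stromal markers summed to 12.6 and 5.07 RPKM in luminal epithelium and to 363 and 526 RPKM in stroma (same order). In both genotypes 9 of 9 epithelial markers were higher in luminal epithelium and 8 of 8 stromal markers higher in stroma. Of the 5 glandular markers, 3 were listed at 0 in each luminal epithelium library.

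Many laminin chains and linkers lay mainly in 1 compartment. Luminal epithelium held Lama5, Lamb2 and Lamc1, with less Lama3 and Lamb3, while stroma held Lama2, Lama4, Lamb1, Lamb2, Lamc1 and Lamc3. Nid1 and Hspg2 were almost wholly stromal. A gene was kept in a comparison when its mean over the pair reached 1 RPKM, and counted as higher or lower when log2((a + 1)/(b + 1)) was at least 1 in size. In the control libraries 24 of the 41 members were kept, of which 7 were higher in luminal epithelium and 10 higher in stroma, 29.2% and 41.7%, against 19.6% and 12.1% of all kept genes. In the labelled knockout libraries 22 were kept, 6 higher in luminal epithelium and 9 in stroma, 27.3% and 40.9%, against 20.7% and 10.7% of all. Itga9, Itgb6 and Lama5 were on the epithelial side in both genotypes, and Hspg2, Itga5, Itgb3, Lama2, Lama4, Lamb1, Lamc3 and Nid1 on the stromal side in both. Of the 21 members kept in both comparisons, 19 had the same sign, and Itgav and Lamc1, which lay near equality, did not. The share of same sign over all genes was not counted, so this agreement is not read as particular to the members. The compartments stand in tables that were normalized separately. Rescaling them to a common upper quartile moved the median of all genes by -0.36 in control and -0.34 in the labelled knockout, and the calls for Agrn, Itgb4, Itgb5, Itga6 and Itgb8 were lost under that or another scaling.

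**Figure D1:**
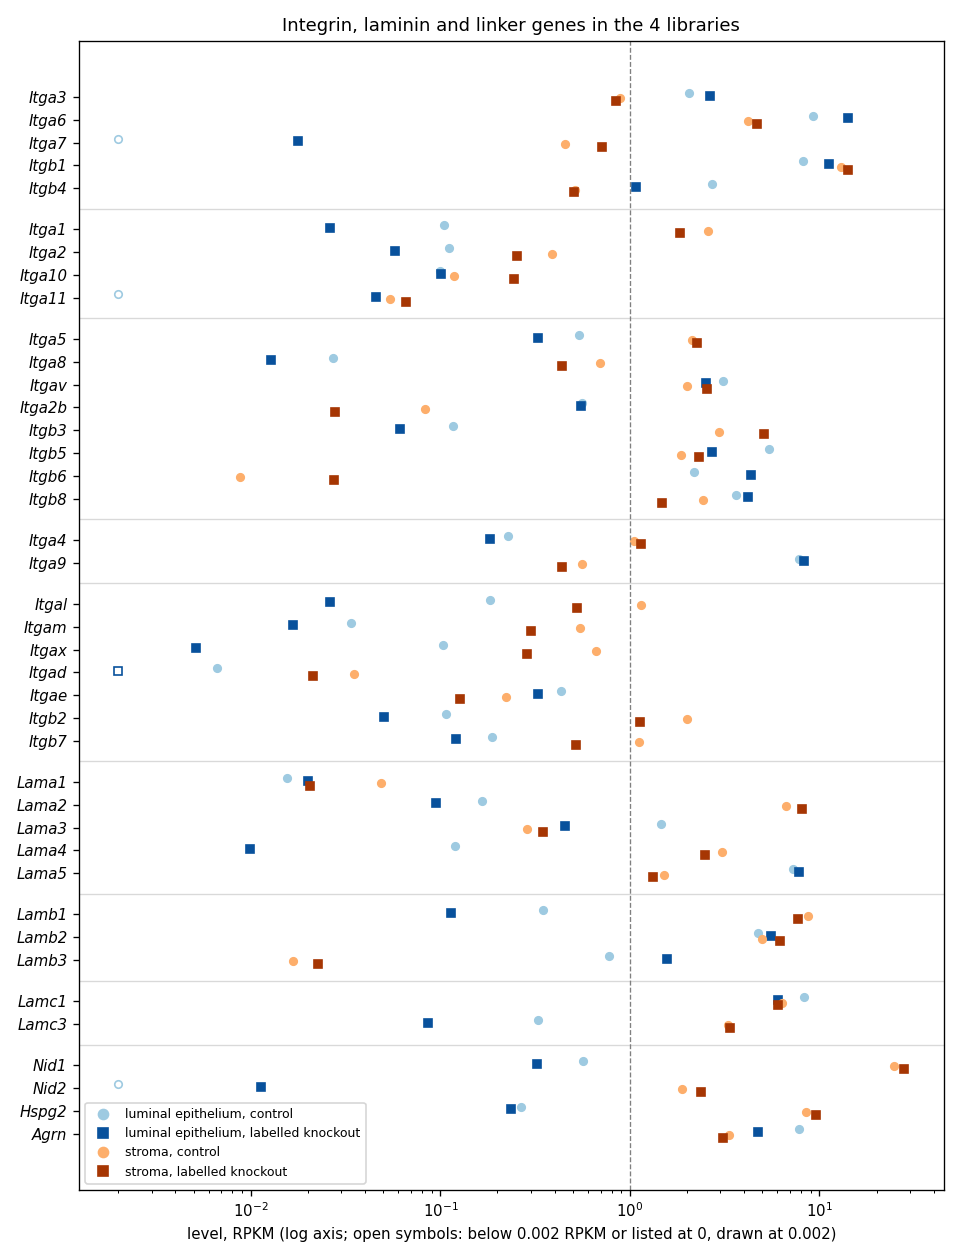
Level of 40 members in RPKM on a log axis, 1 symbol for each of the 4 libraries, grouped by role with lines between the groups; open symbols lie below 0.002 RPKM or are listed at 0. Most laminins and linkers separate blue (luminal epithelium) from orange (stroma), as for Nid1 at 0.562 and 24.6 RPKM in the controls, while Itgb1, Lamb2 and Lamc1 sit together in all 4.

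**Figure D2:**
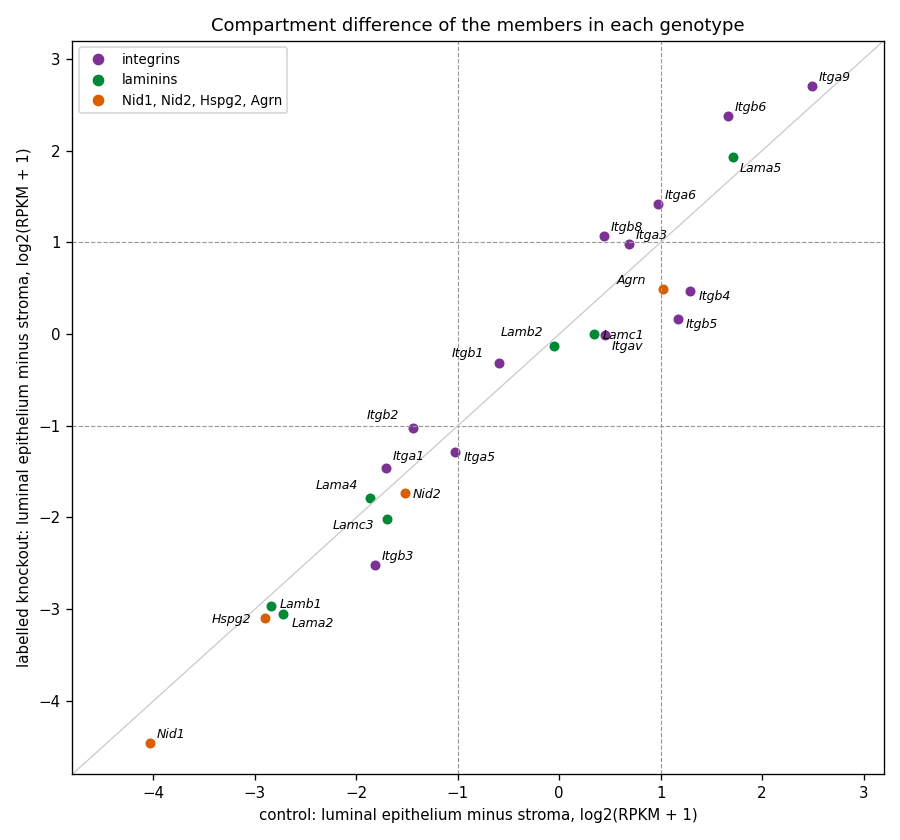
Luminal epithelium minus stroma on the log2(RPKM + 1) scale in control (horizontal) and labelled knockout (vertical) for the members drawn that were kept in at least 1 of the comparisons; dashed lines mark a log2 difference of 1 in size and the grey line equality. Points follow the grey line from Nid1 at -4.03 and -4.46 to Itga9 at 2.49 and 2.70, and Itgb4, Itgb5 and Agrn pass the dashed line in control only.

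Among the alpha chains, which decide what a laminin binds, Lama5 (chromosome 2, 179911078 to 179960564, mm9) made up 80.5% of the summed alpha-chain RPKM in control luminal epithelium and 93.1% in the labelled knockout. It was at 7.24 and 7.82 RPKM there and at 1.51 and 1.32 RPKM in stroma, 4.79-fold higher in luminal epithelium in control (limits 4.27 and 5.37) and 5.93-fold in the labelled knockout (5.55 and 6.37). Lama2, the alpha chain of muscle and mesenchymal laminins, was the leading alpha chain of stroma. It stood at 6.69 and 8.08 RPKM in stroma against 0.165 and 0.0947 RPKM in luminal epithelium. Lama4, found in vessel walls, was second there at 3.07 and 2.48 RPKM, with 0.119 and 0.00996 RPKM in luminal epithelium. Endothelial markers lay on the stromal side as well, with sums of 39.1 and 35.5 RPKM in stroma and 0.437 and 0.163 RPKM in luminal epithelium, and their part in the Lama4 level was not tested. Lama3, an epithelial chain, was at 1.46 and 0.452 RPKM in luminal epithelium and 0.288 and 0.350 RPKM in stroma. Lama1, an early embryonic chain, did not pass 0.0486 RPKM in any library.

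Of the beta chains, Lamb2 was shared and Lamb1 was not. Lamb2 was at 4.73 and 5.55 RPKM in luminal epithelium and 4.95 and 6.19 RPKM in stroma. Lamb1 was at 0.348 and 0.114 RPKM in luminal epithelium and 8.67 and 7.72 RPKM in stroma, where it led with 63.6% and 55.4% of the summed beta chains. It was 24.9-fold lower in control luminal epithelium than in control stroma (limits 14.6 and 49.7). Lamb3, a chain of epithelial anchoring laminin, was at 0.780 and 1.56 RPKM in luminal epithelium and rested on 3 and 5 estimated reads in stroma.

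Among the gamma chains, Lamc1 was common to both compartments, at 8.27 and 6.04 RPKM in luminal epithelium and 6.31 and 6.06 RPKM in stroma. Lamc3 was on the stromal side, at 3.29 and 3.38 RPKM against 0.326 and 0.0861 RPKM in luminal epithelium. It supplied 34.2% and 35.7% of the stromal gamma chains.

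The linkers followed the stroma, apart from agrin. Nid1, nidogen, which bridges laminin and type IV collagen, was the highest member of either stromal library at 24.6 and 28.1 RPKM, against 0.562 and 0.325 RPKM in luminal epithelium. It was thus 43.7-fold lower in control luminal epithelium (limits 28.6 and 70.8). Nid2 was at 1.88 and 2.37 RPKM in stroma, listed at 0 in control luminal epithelium and at 0.0114 RPKM in the labelled knockout. Hspg2, which encodes perlecan, was at 8.44 and 9.56 RPKM in stroma and 0.266 and 0.235 RPKM in luminal epithelium. Agrn, which encodes the proteoglycan agrin, was the exception. It was at 7.79 and 4.73 RPKM in luminal epithelium and 3.33 and 3.09 RPKM in stroma.

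**Figure D3:**
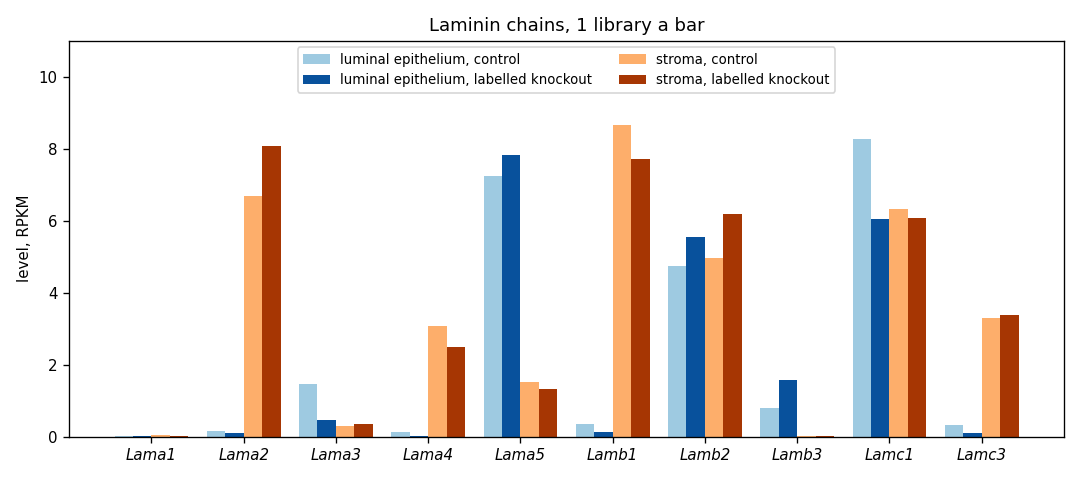
Level in RPKM of 10 laminin chains, 1 bar for each of the 4 libraries, with bars starting at 0. Lama5 stands out in luminal epithelium, Lama2, Lama4, Lamb1 and Lamc3 in stroma, and Lamb2 and Lamc1 in both, with Lamb2 between 4.73 and 6.19 RPKM.

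The promoter windows of members that lie far apart in this map are printed to show the sequence at their starts: Lama5, Lamb3 and Itgb6 from the epithelial side and Nid1 and Lama2 from the stromal side. Each runs 5′ to 3′ on the gene's strand from 250 bases before to 50 bases after an annotated start, from RefSeq on build GRCm38.p6, which is not the build of the deposited tables. Capitals mark a GC box (GGGCGG) or a homeobox motif (TAATTG) on either strand.
Lama5, chr2:180225810-180226109, minus strand: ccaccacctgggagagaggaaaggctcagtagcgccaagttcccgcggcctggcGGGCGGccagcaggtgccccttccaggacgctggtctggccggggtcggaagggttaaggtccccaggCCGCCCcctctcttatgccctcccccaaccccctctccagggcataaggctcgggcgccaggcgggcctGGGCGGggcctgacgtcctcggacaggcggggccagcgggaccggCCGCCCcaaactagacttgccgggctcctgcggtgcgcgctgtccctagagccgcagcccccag
Nid1, chr13:13437352-13437651, plus strand: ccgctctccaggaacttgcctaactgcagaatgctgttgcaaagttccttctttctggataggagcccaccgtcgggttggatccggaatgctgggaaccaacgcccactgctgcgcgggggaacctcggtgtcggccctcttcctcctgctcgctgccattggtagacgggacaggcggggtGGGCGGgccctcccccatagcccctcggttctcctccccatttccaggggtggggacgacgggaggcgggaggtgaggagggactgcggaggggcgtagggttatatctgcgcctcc
Lama2, chr10:27616893-27617192, minus strand: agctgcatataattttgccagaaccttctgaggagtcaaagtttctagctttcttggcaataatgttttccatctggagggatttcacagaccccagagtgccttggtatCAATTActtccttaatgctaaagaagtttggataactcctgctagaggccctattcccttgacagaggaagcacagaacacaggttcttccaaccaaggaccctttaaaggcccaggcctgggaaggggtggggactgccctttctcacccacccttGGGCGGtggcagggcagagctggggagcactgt
Lamb3, chr1:193301744-193302043, plus strand, the first of 2 windows listed: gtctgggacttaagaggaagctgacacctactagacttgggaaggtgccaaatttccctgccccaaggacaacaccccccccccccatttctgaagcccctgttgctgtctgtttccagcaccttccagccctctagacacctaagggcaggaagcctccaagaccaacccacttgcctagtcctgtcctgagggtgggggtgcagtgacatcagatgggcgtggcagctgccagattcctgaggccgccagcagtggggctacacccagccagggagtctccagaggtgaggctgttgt
Itgb6, chr2:60722554-60722853, minus strand, the first of 2 windows listed: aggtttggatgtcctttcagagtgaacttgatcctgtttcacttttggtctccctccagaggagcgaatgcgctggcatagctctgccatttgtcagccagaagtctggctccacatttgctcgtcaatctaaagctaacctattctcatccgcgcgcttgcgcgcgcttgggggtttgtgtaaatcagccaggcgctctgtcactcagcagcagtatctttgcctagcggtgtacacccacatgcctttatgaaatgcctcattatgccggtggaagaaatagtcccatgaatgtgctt
The Lama5 window held 4 GC boxes, those of Nid1 and Lama2 held 1 each, and those of Lamb3 and Itgb6 held none. The Lama2 window also held the homeobox motif, read here on the opposite strand as CAATTA. The search also covered an AP-1 motif (TGANTCA) and a TATA box (TATAAA), and none of the 4 motifs contains another. Windows were listed for 26 of the 41 members, 30 windows in all. A GC box was in 53.3% of them against 35.7% of all 32851 windows, the homeobox motif in 3.33% against 8%, the AP-1 motif in 10% against 7.81% and the TATA box in 0 of 30 against 13.6%. These are matches of letters in a short window and not measured sites.

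Among the integrins that bind laminin, Itga6 and Itgb1 were the most abundant in luminal epithelium. Itga6, the alpha chain that pairs with Itgb1 or Itgb4, was at 9.19 and 14.2 RPKM in luminal epithelium and 4.17 and 4.67 RPKM in stroma. It led the alpha chains in all 4 libraries, with 37.5% and 48.3% of their sum in luminal epithelium. Itgb1, the common beta chain, was at 8.22 and 11.2 RPKM in luminal epithelium and 12.9 and 14.2 RPKM in stroma, the highest beta chain in every library. Itgb4, the beta chain of hemidesmosomes, was at 2.70 and 1.08 RPKM in luminal epithelium and 0.512 and 0.504 RPKM in stroma. Itga3, another laminin receptor of epithelia, was at 2.05 and 2.64 RPKM against 0.891 and 0.842 RPKM in stroma. Itga7, the laminin receptor of muscle, reached 0.714 RPKM, the highest level among the 11 members that stayed under 1 RPKM in all 4 libraries.

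Collagen receptors were low in both compartments apart from Itga1. Itga1 was at 2.59 and 1.83 RPKM in stroma and 0.104 and 0.0261 RPKM in luminal epithelium, 24.96-fold lower there in control (limits 12.2 and 63.1). Its neighbour Itga2 lies 26.0 kb away on chromosome 13, and it did not pass 0.386 RPKM. Itga10 and Itga11 reached at most 0.244 RPKM.

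The integrins that recognise the RGD motif of fibronectin, vitronectin and latent TGF-beta divided by compartment. Itgav, the alpha chain shared by most of them, was at 3.09 and 2.51 RPKM in luminal epithelium and 1.99 and 2.55 RPKM in stroma. Of its beta partners, Itgb6 was at 2.19 and 4.33 RPKM in luminal epithelium and 0.00881 and 0.0273 RPKM in stroma, where it rested on 1 and 6 estimated reads. Itgb3 went the other way, with 2.95 and 5.09 RPKM in stroma and 0.117 and 0.0614 RPKM in luminal epithelium. Itgb5 and Itgb8, which also pair with Itgav, were found in both compartments, as was Itgb1, another of its partners. Itgb5 was at 5.41 and 2.71 RPKM in luminal epithelium and 1.85 and 2.32 RPKM in stroma. Itgb8, an activator of latent TGF-beta, was at 3.63 and 4.19 RPKM in luminal epithelium and 2.42 and 1.48 RPKM in stroma. Itga5, the fibronectin receptor chain, was stromal at 2.13 and 2.25 RPKM, with 0.540 and 0.328 RPKM in luminal epithelium. Itga8 reached at most 0.698 RPKM, in control stroma. Itga2b, a platelet integrin, was at 0.557 and 0.554 RPKM in luminal epithelium and 0.0825 and 0.0278 RPKM in stroma. Its control luminal epithelium level rested on 11 estimated reads.

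Itga9, whose product binds tenascin and osteopontin, had the largest epithelial excess of any integrin on the log2(RPKM + 1) scale. It was at 7.76 and 8.33 RPKM in luminal epithelium and 0.558 and 0.436 RPKM in stroma, a ratio of 13.9 in control (limits 10.9 and 17.7) and 19.1 in the labelled knockout (15.9 and 23.3). Itga4, its close relative, was stromal, at 1.06 and 1.15 RPKM against 0.229 and 0.182 RPKM in luminal epithelium. In stroma the leukocyte integrins were led by Itgb2, a beta chain shared by several of them, at 2.01 and 1.13 RPKM. It was at 0.107 and 0.0502 RPKM in luminal epithelium. Itgb7, a beta chain of gut-homing lymphocytes, was at 1.12 and 0.520 RPKM in stroma and 0.188 and 0.121 RPKM in luminal epithelium. Itgae, which pairs with Itgb7 on lymphocytes within epithelia, was the only leukocyte integrin with a higher level in control luminal epithelium than in control stroma. It was at 0.430 and 0.222 RPKM, from 10 and 35 estimated reads. The limits of its ratio, 0.854 and 3.99, include 1. Itgam, Itgax and Itgad, which lie in a row on chromosome 7 between 135206154 and 135349880 (mm9), reached at most 0.665 RPKM.

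The comparison of genotypes asked whether the anchorage genes of luminal epithelium differ when Msx1 and Msx2 are labelled as deleted. No member passed a log2 difference of 1 there, 0 of the 15 kept against 7.02% of all kept genes. The median log2 difference of the 15 was 0.10, the same as over all 7736 kept genes. Some smaller differences were larger than counting error. By a ratio of at least 1.5 with counting limits that leave out 1, a rule added after the values were seen, 3 of 15 members were higher and 4 lower, 20.0% and 26.7%, against 15.9% and 7.64% of all genes with limits. These shares depend on the scaling: 2 were higher and 5 lower without the 50 most abundant genes, against 9.26% and 13.7% of all, and 2 and 4 at a common upper quartile, against 11.5% and 10.6%. On the deposited scale the higher members were Lamb3, Itgb6 and Itga6. Among the lower members were Itgb4, Itgb5 and Agrn. By the counting limits alone 5 were higher and 6 lower, against 25.4% and 13.5% of all. Transcripts of at least 5 kb made up 8 of the 15, and among all kept genes of that length the shares were 26.7% and 19.4%.

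Lama3 and Lamb3, chains of a laminin that anchors epithelia at hemidesmosomes, differed in opposite directions. Lama3 (chromosome 18, 12492533 to 12741521, mm9) went from 1.46 RPKM to 0.452 RPKM, 3.22-fold lower (limits 2.56 and 4.04). Its mean of 0.955 RPKM lay just under the minimum for keeping a gene. Lamb3 was higher at a ratio of 2.01 (limits 1.28 and 3.38), from 19 estimated reads in control and 547 in the deeper library. Itgb4, which binds this laminin as the partner of Itga6, was 2.50-fold lower (limits 1.99 and 3.11), while Itga6 itself was higher at a ratio of 1.54 (limits 1.36 and 1.76). Agrn was 1.65-fold lower (limits 1.46 and 1.85). These directions held when the libraries were rescaled without the 50 most abundant genes or to a common upper quartile. The former moved the median of all genes by -0.17 and the latter by -0.10, and the ratio of Itga6 became 1.32 and 1.41, under the 1.5 asked for.

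Lama5, Lamb2 and Lamc1, the leading alpha, beta and gamma chains of luminal epithelium by RNA level, differed less. Whether they form a trimer there was not measured. Lama5 had a ratio of 1.08 (limits 0.989 and 1.19) and Lamb2 of 1.17 (limits 1.001 and 1.38). Neither could be told from equality after rescaling, when Lama5 turned to 0.923 or 0.989. Lamc1 was lower at a ratio of 0.731 (limits 0.658 and 0.812). Itgb1 was higher at 1.36 (limits 1.17 and 1.58). Itga9, Itgb8 and Itga3 had ratios of 1.07, 1.15 and 1.29, each with limits that include 1, and Itga9 and Itgb8 turned below 1 under at least 1 rescaling.

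Of the beta partners of Itgav, Itgb5 and Itgb6 differed in opposite directions within luminal epithelium. Itgb5, a receptor of vitronectin, was lower by a factor of 1.998 (limits 1.61 and 2.46). Itgb6 was higher at a ratio of 1.98 (limits 1.51 and 2.69). The sum of Itgb3, Itgb5, Itgb6 and Itgb8, which leaves out Itgb1, a more abundant partner shared with many alpha chains, was 11.35 RPKM for the control and 11.29 RPKM for the labelled knockout, but Itgb5 made up 47.65% and 23.97% of it and Itgb6 19.3% and 38.4%. Itgav was at a ratio of 0.812 (limits 0.679 and 0.973).

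**Figure D4:**
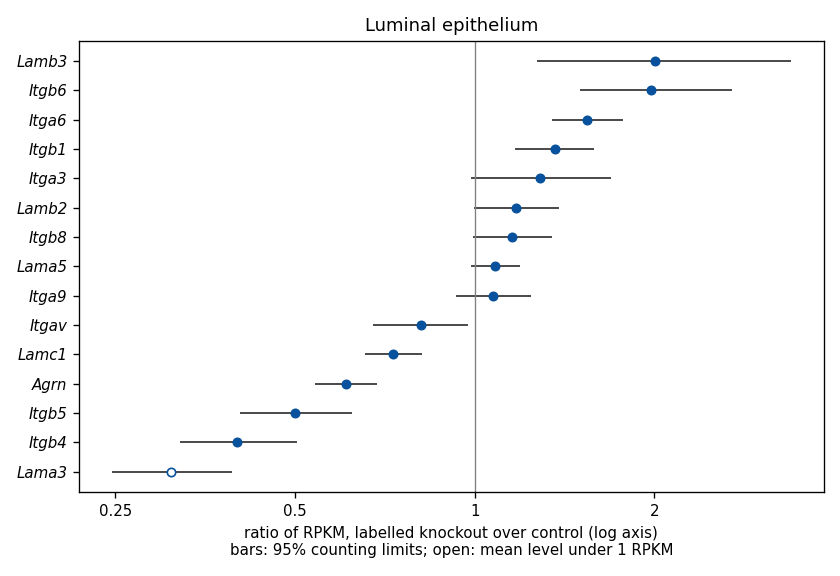
Ratio of RPKM in luminal epithelium, labelled knockout over control, on a log axis for 14 kept members and Lama3 (open symbol, mean under 1 RPKM); bars are 95% counting limits from 1 library per genotype. Lama3 at 0.310 and Itgb4 at 0.400 stand at the low end and Itgb6 at 1.98 and Lamb3 at 2.01 at the high end.

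Members on the stromal side were at low levels in luminal epithelium, and none of those described next was kept in the comparison of its 2 libraries. Chosen on the control libraries, 13 members had a stromal level of at least 1 RPKM and at least 4 times that of luminal epithelium. Their luminal epithelium level was a median of 4.01% of the stromal level in control and 1.48% in the labelled knockout, lower in 11 of 13, with Itgb7 and Nid2 as the exceptions. Over all 1308 genes chosen in the same way and listed above 0 in both stromal libraries the medians were 5.96% and 5.47%, and 44.0% were lower. In luminal epithelium RPKM itself, 6 of the 13 had counting limits under 1, against 15.5% of the genes chosen in the same way, and 7, among them Hspg2, Lama2 and Itgb3, had limits that include 1. For Nid1 the values were 2.29% and 1.16%, for Lamb1 4.02% and 1.48%, and for Lamc3 9.90% and 2.55%. The 8 stromal markers had medians of 3.90% and 0.997% and were lower in 8 of 8. Their part in the levels of stromal members such as Lamb1, at 0.348 and 0.114 RPKM, was not tested. The leukocyte markers summed to 18.6 and 3.55 RPKM in these libraries and the smooth muscle markers to 4.95 and 0.572 RPKM.

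In stroma the same question was asked of the labelled knockout and control libraries. Again no member passed a log2 difference of 1, 0 of 21 kept against 3.04% of all, and the median of the 21 was 0.06 beside 0.07 over all 7723 kept genes. By the ratio of 1.5 with counting limits, 1 member was higher and 2 were lower, 4.76% and 9.52%, against 5.99% and 4.52% of all genes with limits. The higher member was Itgb3 (2.95 and 5.09 RPKM, ratio 1.73, limits 1.58 and 1.89), and the lower members were Itgb8 and Itgb2. By the counting limits alone 10 were higher and 6 lower, against 32.6% and 12.7% of all. Transcripts of at least 5 kb made up 15 of the 21, and among all kept genes of that length the shares were 48.1% and 13.8%. Itgb3 is known as the beta chain of the vitronectin receptor on vessels and platelets. The endothelial markers summed to 39.1 and 35.5 RPKM and the stromal markers to 363 and 526 RPKM. Itga2b, the partner of Itgb3 on platelets, was at 0.0825 and 0.0278 RPKM, from 11 and 6 estimated reads. The part of these cell types in the Itgb3 ratio was not tested. Of the same sum of Itgb3, Itgb5, Itgb6 and Itgb8 in stroma, again without Itgb1, the share of Itgb3 was 40.7% in control and 57.1% in the labelled knockout. The share of Itgb8 was 33.5% and 16.6%, and Itgb8 was 1.64-fold lower (limits 1.49 and 1.81).

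The main stromal basement membrane chains differed little. Nid1 had a ratio of 1.14 (limits 1.11 and 1.18), Hspg2 of 1.13 (1.09 and 1.17) and Nid2 of 1.26 (1.11 and 1.44). Lama2 was at 1.21 (1.15 and 1.27) and Lamb2 at 1.25 (1.16 and 1.34), whereas Lamb1 was at 0.891 (0.841 and 0.944), Lama4 at 0.809 (0.734 and 0.891) and Lama5 at 0.873 (0.791 and 0.963). These 8 kept their direction and limits on the same side of 1 under both rescalings. Lamc1 and Lamc3 had ratios of 0.960 and 1.03 with limits that include 1, as did Agrn at 0.928 (0.853 and 1.01). Under both rescalings the limits of Lamc1 and Agrn lay under 1, with Lamc1 at 0.9185 and 0.9019. Itga1 was 1.42-fold lower (limits 1.31 and 1.53), Itgav was at a ratio of 1.28 (1.16 and 1.42) and Itgb5 at 1.25 (1.07 and 1.47). Stromal markers differed as well, but not in 1 direction. Of the 8, 5 were higher, 2 of them by a log2 difference of 1, and 3 were lower, among them Pdgfra at a ratio of 0.738 (0.710 and 0.767). Their part in these ratios was not tested.

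Of the 7 leukocyte integrins, 1 was kept in the stromal comparison and 0 passed a log2 difference of 1. With no minimum of expression, 7 of 7 had a lower level in the labelled knockout, against 44.7% of all genes listed above 0, and 6 had counting limits under 1, against 12.3% of all genes with limits. Their sum went from 5.75 to 2.91 RPKM. Itgb2 was 1.78-fold lower (limits 1.47 and 2.16) and was the member kept. Itgal, the alpha chain of the lymphocyte receptor for ICAMs, was at 1.15 and 0.524 RPKM, and Itgax, a chain of dendritic cells, at 0.665 and 0.287 RPKM. The 8 leukocyte markers were lower too, in 8 of 8, with sums of 125.5 and 56.3 RPKM. In captured tissue fewer cells of a type and less RNA per cell cannot be told apart, and the part of the leukocyte markers in this difference was not tested.

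**Figure D5:**
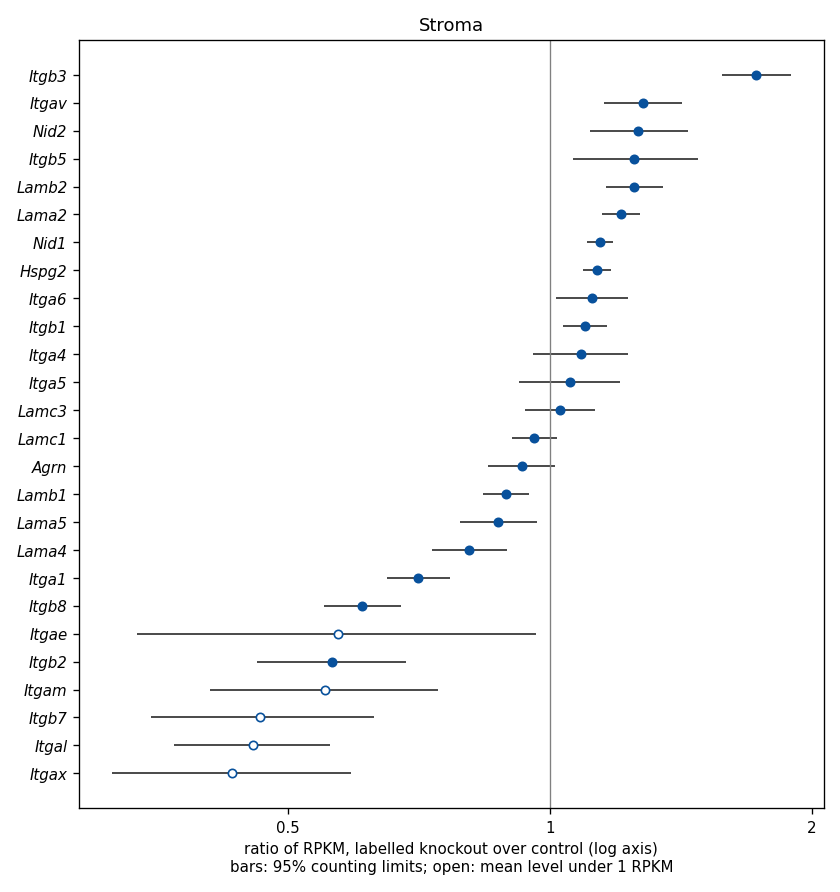
Ratio of RPKM in stroma, labelled knockout over control, on a log axis for the 21 kept members and 5 leukocyte integrins with a mean under 1 RPKM (open symbols); bars are 95% counting limits from 1 library per genotype. Itgb3 at 1.73 stands apart at the high end. Among the genes drawn, the low end is made of leukocyte integrins down to Itgax at 0.432, with Itgb8 and Itga1 above them. Other members with a mean under 1 RPKM were not drawn, among them Itga2b at 0.337 (limits 0.114 and 1.11) and Lama1 at 0.425 (limits 0.193 and 0.944).

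The wider machinery was followed through 4 lists of 86 genes. Among 25 other basement membrane components, 5 were kept in luminal epithelium, 2 of them higher and 0 lower by a log2 difference of 1, beside 5.03% and 1.99% of all kept genes. Egflam, which encodes the dystroglycan ligand pikachurin, differed most, with 0.202 and 11.4 RPKM (ratio 56.3, limits 25.3 and 150.3). Col4a1, a chain of the type IV collagen network, was at 0.562 and 3.69 RPKM, a ratio of 6.57 (limits 4.34 and 10.3). Its partner chain Col4a2 was at 0.463 and 1.22 RPKM. Frem2, a protein of the Fraser complex under epithelia, was at 1.32 and 3.39 RPKM, and Fbln1, a fibulin, at 1.48 and 0.836 RPKM.

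Among 15 other receptors and partners, 10 were kept in luminal epithelium, with 2 higher and 0 lower. Bcam, the Lutheran receptor for Lama5, was at 1.02 and 4.15 RPKM, a ratio of 4.08 (limits 2.49 and 7.72). Dst, a plakin that ties hemidesmosomes to keratin, was at 1.02 and 3.21 RPKM, a ratio of 3.13 (limits 2.64 and 3.76). Dag1, which encodes dystroglycan, was at 7.92 and 11.1 RPKM and Cd81, a tetraspanin partner of integrins, at 4.22 and 6.36 RPKM. Of 30 genes of the adhesion plaque inside the cell, 22 were kept and 0 passed in either direction, the nearest being Zyx, which encodes the plaque protein zyxin, at 3.90 and 1.84 RPKM and Itgb1bp1, which binds the tail of Itgb1, at 1.18 and 2.44 RPKM. Of 16 other integrin ligands, 5 were kept and 1 was higher. This was Spp1, which encodes osteopontin, at 0.117 and 3.06 RPKM, with limits of 4.29 and 952 that show how few reads the control held.

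In stroma 1 of 15 kept basement membrane components was higher and 0 were lower, beside 1.45% and 1.59% of all kept genes. Smoc2, a calcium-binding matrix protein, was at 2.10 and 6.77 RPKM, a ratio of 3.22 (limits 2.80 and 3.72). The type IV collagen chains divided: Col4a1 was at 30.9 and 39.5 RPKM and Col4a2 at 17.9 and 21.2 RPKM, while Col4a5 was at 7.51 and 4.44 RPKM and Col4a6 at 3.38 and 1.86 RPKM. Col4a5 and Col4a6 were 1.69-fold and 1.81-fold lower. Col4a3 and Col4a4, at 0.268 and 0.274 RPKM in control, were not kept. Col7a1, the collagen of anchoring fibrils, was at 2.18 and 3.77 RPKM. None of 14 kept receptors and none of 21 kept plaque genes passed, with Sdc1, a syndecan, at 3.14 and 5.49 RPKM and Fermt3, the kindlin of blood cells, at 1.37 and 0.686 RPKM. Of 7 kept ligands 1 was higher: Thbs1, thrombospondin, at 2.96 and 7.16 RPKM, a ratio of 2.42 (limits 2.22 and 2.63).

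In the authors' deposited table for luminal epithelium, 22 members were tested and 0 were marked significant, beside 0.841% of all genes tested. The lowest q-value among members in the authors' deposited table was 0.533, for Lama3. An unadjusted p below 0.05 stood in the authors' deposited table for 2 members, Itgax and Lama4, both lower in the labelled knockout and both marked there as not tested, which leaves 0 of the 22 tested. In the authors' deposited table for stroma, 32 members were tested and 0 were marked, beside 0.0409% of all, and 0 were below an unadjusted p of 0.05. Those tests compare a library with a library, not the genotypes.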

How the data were processed

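RNA of 4 laser-captured samples was sequenced, 1 per group, from stranded libraries made after ribosomal RNA removal, per the labels' protocols. The deposited tables, 1 per compartment, hold RPKM for a control and a knockout library and the authors' own q-value, p-value and log2 fold change, per the file headers. Build mm9, Cufflinks 2.0.2, TopHat2 2.0.5, TopHat and CASAVA 1.8.2 were used, per the submitters' processing notes, which are given here with no role; filters and the use of strand are not given in the sources used here. From the RPKM, log2 differences used a pseudocount of 1 RPKM, which understates differences of low genes, and a minimum mean of 1 RPKM. With 1 library per group there was no test across samples. Depth came from the spacing of low RPKM values times transcript length less 200 bases, with lengths from GENCODE vM21 by RefSeq identifier, known for 40 of 41 members (not Itga10); between 59.7% and 61.7% of low values lay within 0.2 of a whole read. Starts were raised by 1, since 2809 of 20768 loci had an annotated gene's length when counted from 0 and 458 when counted from 1. The members, lists and rules were chosen with earlier results of these data known. Named were the other members, by value where a level reached 1 RPKM and otherwise by value or range, up to 4 genes per list and compartment with the largest log2 difference, the type IV collagen chains, Msx1 and Msx2. Values of 1 member are not reported here, though counts over members include it. Alternatives changed the pseudocount, the minimum and the scaling. The steps were tested on simulated libraries. Computations ran in Python 3.11.15 with scipy 1.17.1, pandas 2.3.3 and numpy 2.4.6, and plots in matplotlib 3.10.9.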

Additional observations from a re-analysis of the deposited data

Results flagged for a closer look

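Itgav and Itgb5 had genotype ratios on opposite sides of 1 in the compartments, with counting limits that leave out 1 in both. Itgb5 was at a ratio of 0.501 in luminal epithelium and 1.25 in stroma, a difference of -1.32 between the log2 ratios. Itgav was at 0.812 and 1.28, a difference of -0.65. With 1 library per group the difference between compartments was not tested, and the limits cover counting error only. Of all kept genes with limits, 25.4% were higher and 13.5% lower by counting limits alone in luminal epithelium. In stroma these shares were 32.6% and 12.7%. The share of all genes on opposite sides of 1 was not counted, so the pattern is not read as particular to these members.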

How the results depend on the processing

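No paired analysis was possible because each group has 1 library and no replicate number. Under 6 alternatives, 8 of 164 values for single-member calls between compartments fell below the log2 difference of 1, all after rescaling. Direction is no check of these calls. A changed pseudocount or minimum cannot turn it, and the rescalings shift too little to turn a called difference. In luminal epithelium 1 member (Itgb4) passed between genotypes with a pseudocount of 0.1 or 0.5 RPKM, beside 11.9% and 9.11% of all kept genes. As ratios of at least 2 with no pseudocount, 2 members passed (Itgb4 and Lamb3), beside 12.7% of all kept genes. That alternative was added after the values were seen. The median of the members turned to -0.072 with no minimum, -0.10 when rescaled without the 50 most abundant genes and -0.014 at a common upper quartile. Over all genes under the same settings it was 0, -0.069 and 0.003. In stroma the median turned to -0.0068 with no minimum and was 0.16 with a minimum of 5 RPKM, beside 0 and 0.079 over all genes. Between compartments, a minimum of 5 RPKM kept few members and left 2 called in control and 2 in the labelled knockout. Of all genes kept at that minimum, 50.9% and 49.2% were called. In control the median, 0.14 as reported, was -0.076 with no minimum, 0.34 with a minimum of 5 RPKM, -0.068 without the 50 most abundant genes and -0.29 at a common upper quartile. Over all genes it was 0.29 as reported and 0, 0.53, 0.12 and -0.06 in the same order. In the labelled knockout the median of the members was -0.08 as reported and -0.18, -0.42 and -0.48 with no minimum and under those rescalings. Over all genes it was 0.32 as reported and 0, 0.02 and -0.02 in the same order. By the ratio of 1.5 with counting limits, a minimum of 5 RPKM left 1 higher and 1 lower member in luminal epithelium and 0 of each in stroma, since fewer members were tested. The shallow control luminal epithelium limits every ratio of a low gene there. Among the long transcripts of at least 5 kb, common in this family, the median log2 difference in luminal epithelium was 0.04.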
